A study of Mus musculus with 6 samples.

Results

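Cytosolic ribosomal proteins are the protein parts of the ribosome, the particle that translates mRNA into protein. Their genes were taken by symbol: names that begin with Rpl (large subunit) or Rps (small subunit) and a digit, together with Rplp0, Rplp1, Rplp2 and Rpsa. Symbols that begin with Rps6k, Rps19bp1, Rpl7l1 and names that contain -ps were left out, which removed 101 pseudogene names and 11 others. This gave 88 of the 14481 genes of the table. Of these, 43 encode proteins of the large subunit, 3 its stalk and 31 proteins of the small subunit. These 77 genes are called the core genes here. Another 9 are paralogues or retrocopies of core genes, and Rpl6l and Rps12l1 stand in none of these lists. The annotation marks Rpl37rt, Rpl6l, Rps12l1, Rps3a2, Rps3a3 and Rps4l as processed pseudogenes, transcribed or not, so the name ribosomal protein is uncertain for them. All 88 genes passed the filter on low counts.

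The study measured polyadenylated RNA of sorted, wild-type CD8+ T cells of mice, the cytotoxic branch of the T lymphocytes, and asked how they respond to what astrospheres secrete. All cells were activated on anti-CD3 (1 µg/ml) with interleukin 2 (0.1 µg/ml) and soluble anti-CD28 (1 µg/ml), received conditioned medium (CM) on day 1, and were harvested on day 3. The medium came from pSTAT3+ astrospheres in 3 libraries, called STAT3+ CM, and from pSTAT3- astrospheres in 3 libraries, called STAT3- CM. The prefix p stands for phosphorylated STAT3, the activated state of this transcription factor. The labels do not say whether the replicates were separate mice, cultures or batches of medium, and the p-values therefore cover only how far these libraries lie apart, which may be technical. Cells that received no CM were not analysed here.

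Most ribosomal proteins are needed in equal numbers, and cells make their transcripts in large amounts. In vertebrates these transcripts are the main members of the TOP class, whose mRNAs begin with a C and a run of C and U bases, the terminal oligopyrimidine tract. The kinase mTORC1 and the RNA-binding protein LARP1 control the translation and stability of TOP mRNAs through that tract. When a T cell is activated it enlarges and makes many new ribosomes before it divides.

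The tract can be seen in DNA around the annotated starts of the genes. The sequences below are from RefSeq (GRCm38.p6), with 10 bases before the start and 20 from it, read along the gene's strand, and the capitals mark a run of at least 6 C or T bases that covers the start. For genes with several starts in the table, the start with the longest run is shown. Rps6, Rpl28, Rpl35a, Rps18 and Rpl15 are shown as core genes with such a run. They lie at chr4:86857348-86857377 (- strand), chr7:4792955-4792984 (+), chr16:33056472-33056501 (+), chr17:33955646-33955675 (-) and chr14:18270967-18270996 (-).
Rps6: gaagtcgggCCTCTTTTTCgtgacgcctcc
Rpl28: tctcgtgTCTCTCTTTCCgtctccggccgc
Rpl35a: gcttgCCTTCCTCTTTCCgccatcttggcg
Rps18: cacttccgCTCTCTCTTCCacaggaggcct
Rpl15: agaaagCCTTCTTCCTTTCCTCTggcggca

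Genes with a paralogue described below are shown beside it. Rps27 lies at chr3:90213629-90213658 (-), Rps27rt at chr9:114982720-114982749 (-), Rps27l at chr9:66946076-66946105 (+), Rpl22 at chr4:152324426-152324455 (+) and Rpl22l1 at chr3:28805498-28805527 (+). In this annotation a run covers the start of Rps27 and Rps27rt, but not that of Rps27l, Rpl22 or Rpl22l1.
Rps27: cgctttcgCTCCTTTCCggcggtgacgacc
Rps27rt: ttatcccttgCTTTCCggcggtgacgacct
Rps27l: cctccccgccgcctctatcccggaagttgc
Rpl22: cttctggaatgttccagctcccactgacag
Rpl22l1: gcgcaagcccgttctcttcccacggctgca

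Of the 88 genes, 63 had a start in the RefSeq table. A run covered at least 1 start in 20 of the 63, or 31.7%, and in 858 of the 10258 other genes of the counts table, or 8.36%. The motif CTTTCC, searched on the gene's strand within 30 bases either side of the start, was found in 13 of the 63, or 20.6%, and in 345 of the 10258, or 3.36%. A CTTTCC that lies at the start is part of a run as well. The absence of a run says only that these letters are not at the annotated base, which can differ from the base where transcription begins.

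Total counts ran from 43346089 to 53630514 per library, and TMM scaling factors from 0.960 to 1.06. The 9 CD8+ T cell markers were all in the table and summed to 2768 to 2985 CPM, the reads of a gene relative to its library's TMM-scaled total, in STAT3- CM and to 2770 to 3523 in STAT3+ CM. Of 10 dendritic cell markers, 6 were in the table and summed to 86.5 to 128 CPM in STAT3- CM and 56.6 to 68.5 in STAT3+ CM, while Flt3, Clec9a, Xcr1 and Siglech were absent from it. Most of each sum was Cd74. The 6 markers did not all move alike. For 4 of them (Cd74, H2-Aa, H2-Eb1 and Zbtb46) every STAT3+ CM library lay below every STAT3- CM library. H2-Ab1 and Itgax overlapped between the media, with log2 fold changes (STAT3+ CM minus STAT3- CM) of 0.13 and -0.04. Of 6 granulocyte and 6 erythroid markers, 0 were in the table. Of 7 B cell markers 1 was (Cd79b), of 9 of macrophages and monocytes 4, of 8 of astrocytes 4 (without Gfap and Aqp4), and of 5 of NK cells 5. The part that dendritic cell RNA has in the values below was not tested.

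The ribosomal protein genes took a similar share of every library, and the groups overlapped. Their summed counts were 10.9%, 10.1% and 11.2% of the library in STAT3- CM, compared with 11.9%, 12.8% and 9.74% in STAT3+ CM. STAT3+ CM replicates 1 and 2 were the highest of the 6 libraries and STAT3+ CM replicate 3 the lowest. The group means were 10.8% ± 0.595 and 11.5% ± 1.57 (SD, n = 3), so the difference of 0.717 percentage points was within the spread of STAT3+ CM. It was 0.046 points without STAT3+ CM replicate 2 and 1.58 without STAT3+ CM replicate 3. In bulk RNA a share cannot tell fewer transcripts per cell from fewer cells that carry them.

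**Figure D1:**
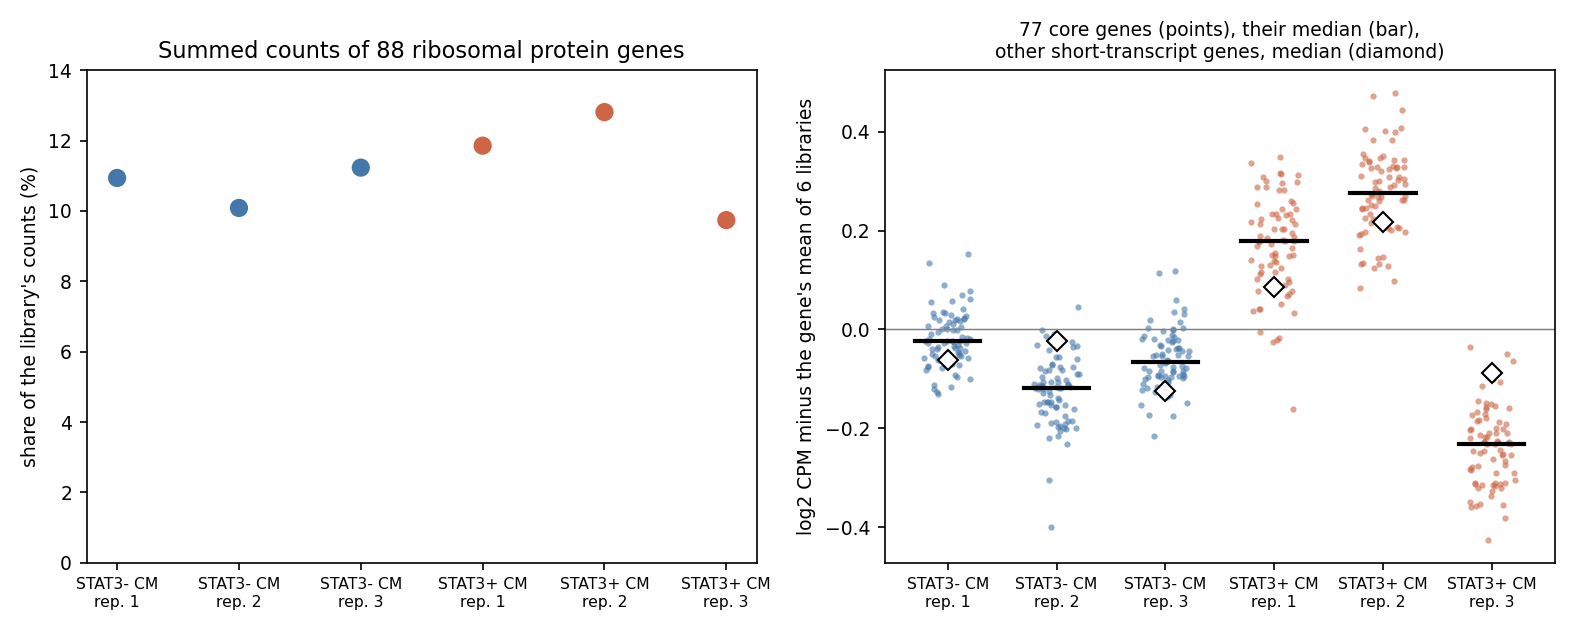
Left, summed counts of the 88 ribosomal protein genes as a percent of each library's counts. Right, for each library, log2 CPM of the 77 core genes minus the gene's mean over the 6 libraries (points), their median (bar) and the median of 830 other protein-coding genes with transcripts under 1000 nucleotides (diamond). In the shares and the bars, STAT3+ CM replicates 1 and 2 lie above the STAT3- CM libraries and STAT3+ CM replicate 3 below them. The diamond of STAT3+ CM replicate 3 lies above that of STAT3- CM replicate 3.

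The core genes moved together from library to library, and most had the same highest and the same lowest library. On the log2 scale, relative to each gene's own mean, the median core gene stood at -0.02, -0.12 and -0.07 in STAT3- CM and at 0.18, 0.28 and -0.23 in STAT3+ CM, while the median of all genes tested stayed between -0.01 and 0.02. STAT3+ CM replicate 2 was the highest library for 58 of the 77 core genes and STAT3+ CM replicate 1 for the other 19. STAT3+ CM replicate 3 was the lowest for 69 and STAT3- CM replicate 2 for 5. The large subunit (-0.23) and the small subunit (-0.23) had the same median in STAT3+ CM replicate 3, and 0.27 and 0.30 in STAT3+ CM replicate 2. The correlation between 2 core genes over the 6 libraries had a median of 0.92 and a range of 0.18 to 0.999 over 2926 pairs, which share their libraries and their scaling.

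Other genes with short transcripts were also highest in STAT3+ CM replicates 2 and 1, but their lowest library was STAT3- CM replicate 3. Of the 88 genes, 71 have a principal transcript under 1000 nucleotides. The 830 protein-coding genes under that length that are not ribosomal protein genes had medians of -0.06, -0.02 and -0.13 in STAT3- CM and of 0.09, 0.22 and -0.09 in STAT3+ CM. The 5223 genes with transcripts of at least 3000 nucleotides had 0.06, 0.02 and 0.07 in STAT3- CM, compared with -0.02, -0.15 and 0.06 in STAT3+ CM. STAT3+ CM replicate 2 was therefore the highest library of the short genes and the lowest of the long ones. The 21 other listed genes with TOP mRNAs, most of them translation factors, had medians of -0.03, -0.03 and -0.11 in STAT3- CM. In STAT3+ CM their medians were 0.12, 0.13 and -0.15.

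No ribosomal protein gene passed the test of the difference between the media. In edgeR's quasi-likelihood test, adjusted by Benjamini and Hochberg over 14319 genes, 0 of the 88 had an adjusted p under 0.05, where 0% of all genes did. At an unadjusted p under 0.05 stood 0 of the 88 and 521 of all genes, or 3.64%. DESeq2 called 0 of the 88 and 48 of all genes, or 0.335%, and limma-voom called 0 of either. In 0 of the 88 did the 3 libraries of STAT3+ CM all lie above or all below those of STAT3- CM, where they did so in 7.95% of all genes.

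Their log2 fold changes (log2 changes), STAT3+ CM minus STAT3- CM, lay to one side of 0. Of the 88, 85 were positive, beside 50.2% of all genes tested, and the median was 0.16, with quartiles of 0.12 and 0.19, beside 0.0008 for all genes. The median standard error (SE) of a single gene was 0.16, as large as the median change. The 672 positive values among 830 other short genes, or 81%, had a median of 0.15 over all 830, and 30% of the 5223 long genes were positive, with a median of -0.08. With offsets corrected in each library for the length of the principal transcript, 43 of the 88 were positive and 45 negative, with a median of -0.0037. With the median transcript length they were again 43 and 45 (-0.0014), and with the shortest transcript 77 and 11 (median 0.06). With library totals as the only scaling, 81 were positive and 7 negative.

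Among single libraries left out, STAT3+ CM replicates 2 and 3 moved the median most. It was 0.30 without STAT3+ CM replicate 3, when 44 of the 88 had an unadjusted p under 0.05 but the smallest adjusted p by edgeR was 0.476. It was 0.05 without STAT3+ CM replicate 2, with 73 positive and 15 negative values. Without STAT3+ CM replicate 1 it was 0.11, and the whole range over single libraries left out was 0.05 to 0.30.

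**Figure D2:**
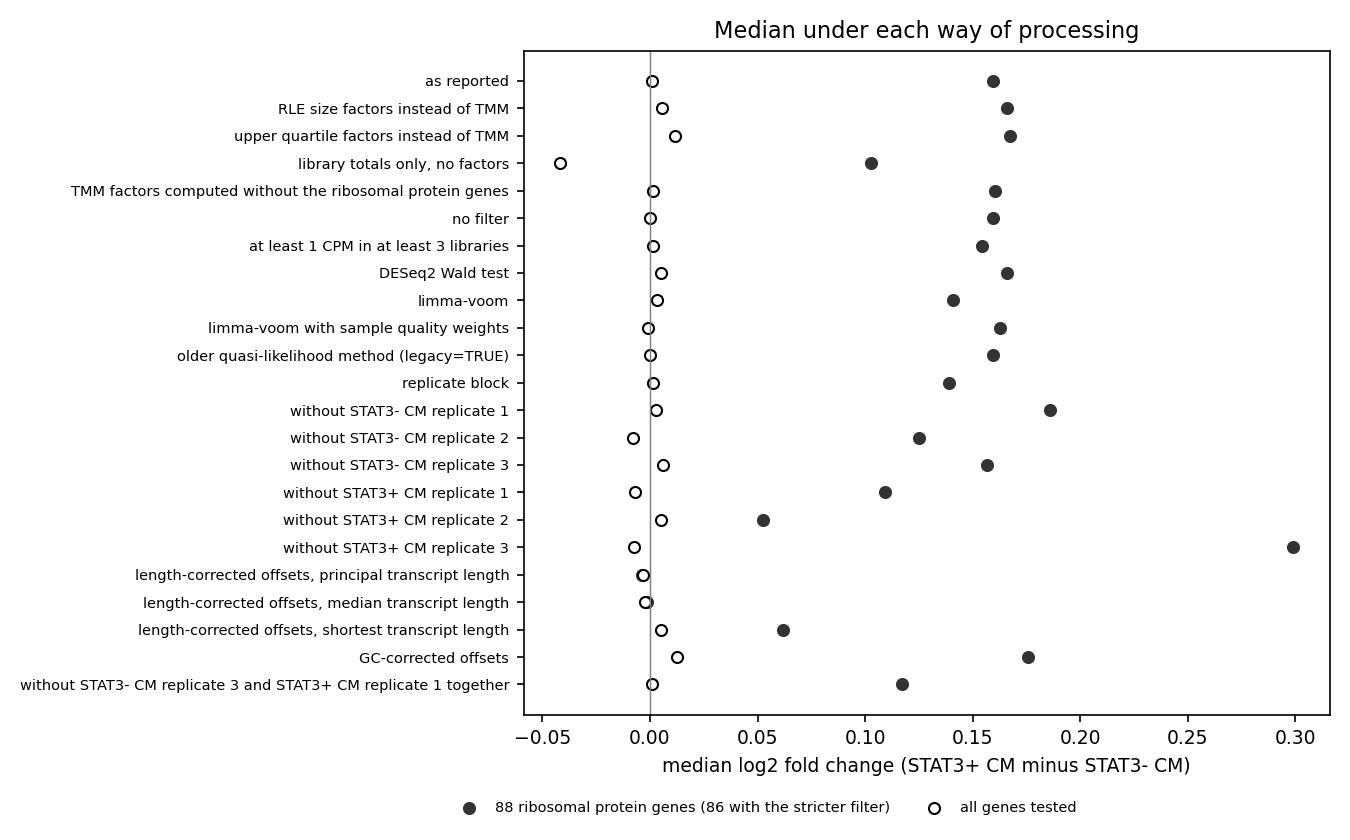
Median log2 fold change (x axis) of the ribosomal protein genes (filled points) and of all genes tested (open points) as reported and under 22 other ways of processing or choices of libraries (y axis). The filled points run from -0.0037 with length-corrected offsets to 0.30 without STAT3+ CM replicate 3, and the open points from -0.0416 with library totals to 0.0126 with GC-corrected offsets.

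All 43 genes of the large subunit had positive values with the scaling reported, beside 50.2% of all genes, but with offsets for principal transcript length 20 were positive and 23 negative. Their median was 0.15 and their range 0.05 to 0.27. The smallest p-values were those of Rpl24, which forms a bridge to the small subunit, and Rpl27. Rpl24 stood at 329, 323 and 346 CPM in STAT3- CM and at 425, 443 and 310.1 in STAT3+ CM (log2 change 0.24 ± 0.15 SE, edgeR adjusted p = 0.989). Rpl27 stood at 552, 536 and 552 CPM in STAT3- CM and at 733, 710.4 and 496 in STAT3+ CM (0.24 ± 0.16 SE, edgeR adjusted p = 0.989). In both genes the STAT3- CM libraries lay close together, with STAT3+ CM replicates 1 and 2 above them and STAT3+ CM replicate 3 below. Rpl5 and Rpl11, which bind the ubiquitin ligase Mdm2 when they are not built into ribosomes, stood at 1920.2 ± 104 and 1261 ± 66.9 CPM in STAT3- CM and at 2132 ± 331 and 1418 ± 305 in STAT3+ CM (SD, n = 3). Their log2 fold changes were 0.15 ± 0.16 SE and 0.17 ± 0.17 SE.

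The 31 genes of the small subunit also had positive values with the scaling reported, while with offsets for principal transcript length 16 were positive and 15 negative. Their median was 0.16 and their range 0.02 to 0.28. Rps27a, whose product is made as a fusion with ubiquitin, had the smallest p among them. It stood at 1536, 1434 and 1635 CPM in STAT3- CM and at 1924, 2123 and 1475 in STAT3+ CM (log2 change 0.26 ± 0.16 SE, edgeR adjusted p = 0.989). The third library of STAT3+ CM thus lay among those of STAT3- CM. Rps6, the substrate of the S6 kinases downstream of mTORC1, stood at 989, 945 and 1037 CPM in STAT3- CM and at 1275, 1150 and 825 in STAT3+ CM (0.13 ± 0.17 SE). Rps14 varied most of all core genes, with an SD of log2 CPM of 0.34 over the 6 libraries. It stood at 1809, 1464 and 1755 CPM in STAT3- CM and at 2221, 2521 and 1345 in STAT3+ CM (0.28 ± 0.22 SE).

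The stalk of the large subunit recruits the translation factors that hydrolyse GTP. Its 3 genes had positive values that turned negative with offsets for principal transcript length. Its base Rplp0 stood at 3766, 3778 and 3378 CPM in STAT3- CM and at 3618, 4200 and 3300.1 in STAT3+ CM (log2 change 0.03 ± 0.15 SE). Rplp1 stood at 3236, 2968 and 2692 CPM in STAT3- CM and at 2996, 3890 and 2629 in STAT3+ CM (0.10 ± 0.18 SE). For both genes STAT3+ CM replicate 2 was highest and replicate 3 lowest, while STAT3+ CM replicate 1 lay within the range of STAT3- CM. Rplp2 stood at 1198, 1095 and 1107 CPM in STAT3- CM and at 1338, 1493 and 947 in STAT3+ CM (0.15 ± 0.18 SE). It followed the order of most core genes, with STAT3+ CM replicates 1 and 2 highest and STAT3+ CM replicate 3 lowest.

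**Figure D3:**
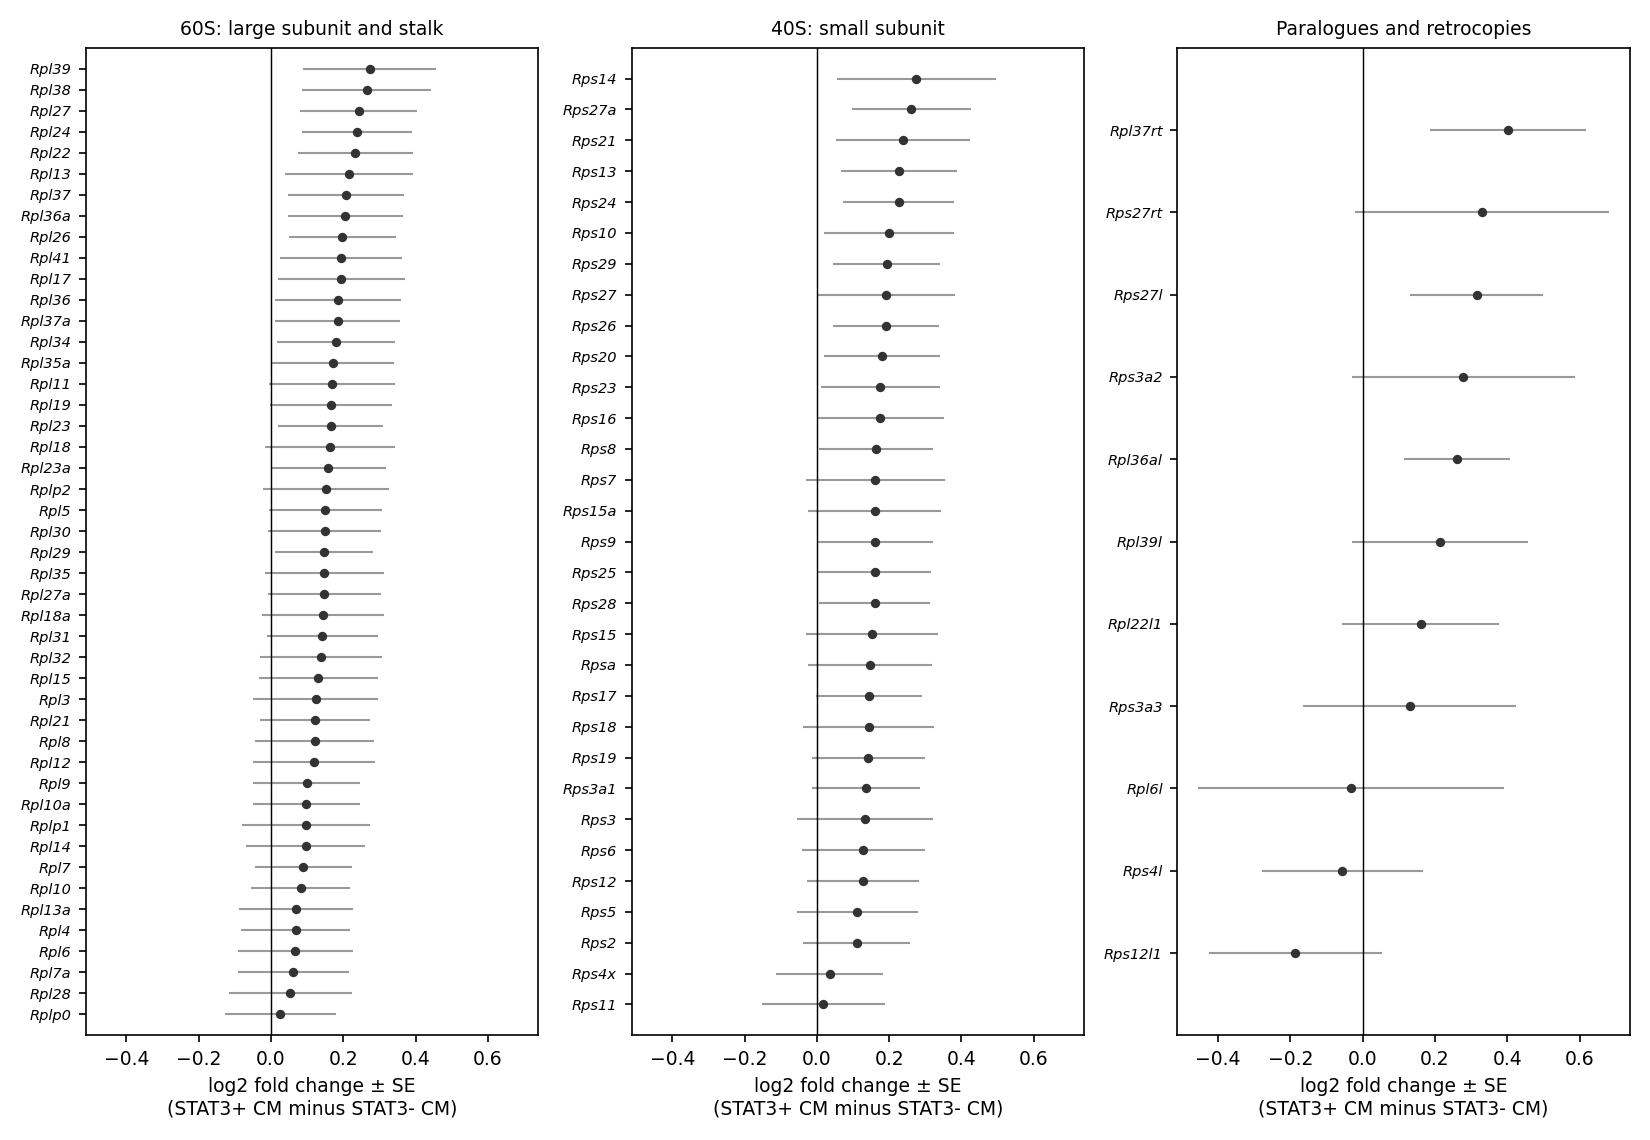
Log2 fold change, STAT3+ CM minus STAT3- CM, of each of the 88 genes (points) with its standard error (lines), in 3 panels: large subunit and stalk, small subunit, and the 11 genes outside the core. All 77 core genes lie right of 0 with the scaling reported, and of the 11 others Rpl6l, Rps4l and Rps12l1 lie left of it; with length-corrected offsets 45 of the 88 lay left of 0.

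Some core genes held steadier than others. Rpl7, a protein of the large subunit, had the smallest SD of log2 CPM over the 6 libraries, 0.08, where the median SD of the 88 genes was 0.21. It stood at 1769, 1839 and 1959 CPM in STAT3- CM and at 2011, 2047 and 1867 in STAT3+ CM. Rpl4 (SD 0.12), Rpl10 (0.12) and Rps4x (0.12) followed. They stood at 3870 ± 35.3, 821 ± 24.1 and 2312 ± 41.3 CPM in STAT3- CM and at 4057 ± 499, 869 ± 103 and 2370.1 ± 305 in STAT3+ CM (SD, n = 3), so the STAT3- CM libraries were close together and the STAT3+ CM libraries apart. Rpl13a, a protein known for a second role in translational silencing of inflammatory mRNAs, had the lowest correlation with the median of the other core genes, 0.58 over 6 libraries, where the median core gene had 0.96. It was relatively low in STAT3+ CM replicate 1, 0.34 below the core median on the log2 scale.

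Levels can be compared between genes only per transcript length, and here the core genes spanned a wide range. Rplp1 was highest at 6149 CPM per kilobase, with a range over the 6 libraries of 5269 to 7795. Rpl41, the smallest ribosomal protein, followed at 4469 (3889 to 5866), then Rps12 at 3635 (3236 to 4448) and Rpl32 at 3283 (2662 to 3977). The ranges of Rpl41, Rps12 and Rpl32 overlapped, and that of Rpl41 overlapped with that of Rplp1. At the other end of the core stood Rps20 at 363, Rpl13a at 370.0, Rps10 at 466 and Rpl24 at 536 CPM per kilobase. Of these, Rps20 is uncertain because its annotated principal transcript is 3706 nucleotides long. How reads that also fit a pseudogene were counted is not given, so the other levels are uncertain as well. The lowest count of a core gene in any library was 9452 (Rps10), which gives a counting error of 1.03%, small beside the spread between libraries.

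**Figure D4:**
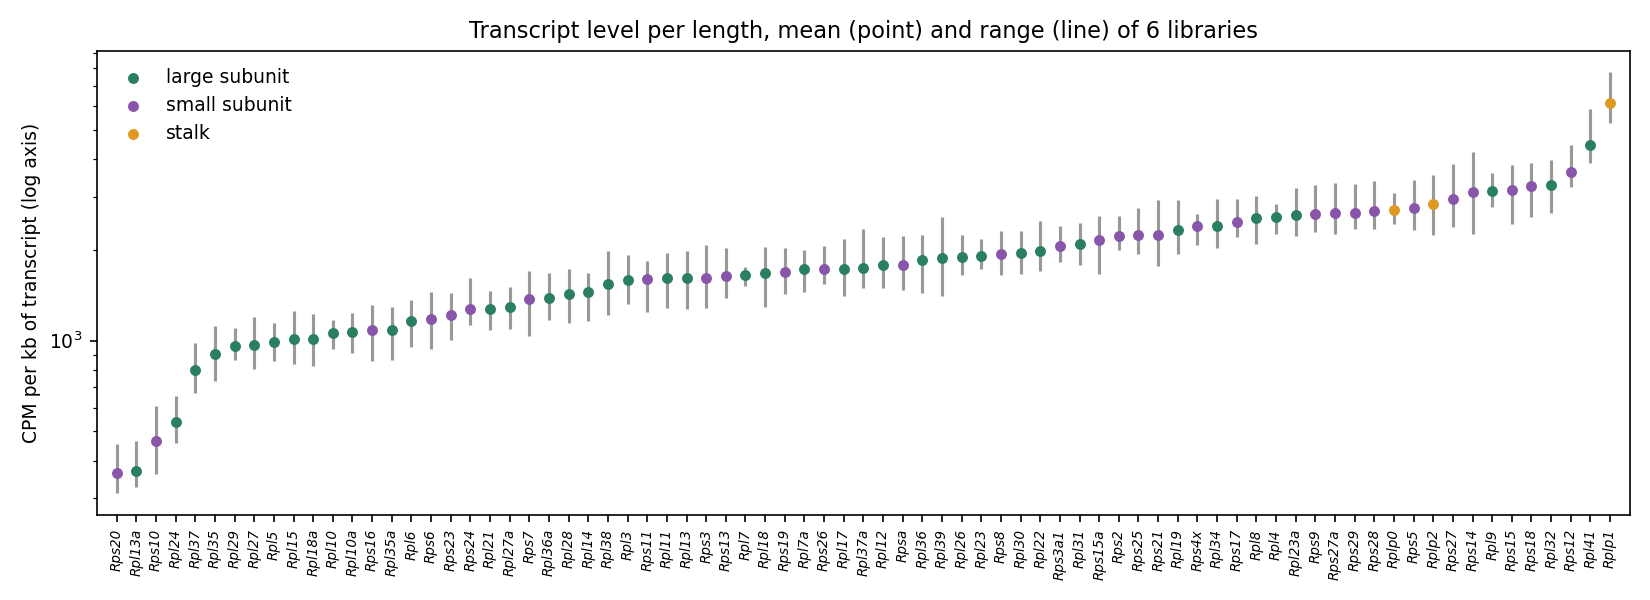
Level of each of the 77 core genes in CPM per kilobase of principal transcript (log axis), as the mean (point) and range (line) of the 6 libraries, ordered by level and coloured by subunit. Large and small subunit genes are mixed along the order, Rplp1 of the stalk is highest at 6149 and Rps20 lowest at 363.

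The paralogues and retrocopies were mostly far below the genes they resemble, and their reads are uncertain where a copy is nearly identical. Rpl36al, a paralogue of Rpl36a, had one of the smallest p-values of the 88 genes. It stood at 68.5, 64.6 and 68.0 CPM in STAT3- CM and at 86.2, 91.0 and 63.9 in STAT3+ CM (log2 change 0.26 ± 0.15 SE, edgeR adjusted p = 0.989). Per length it made up 10.0%, 10.2% and 9.56% of the Rpl36a level in STAT3- CM, compared with 10.2%, 10.3% and 10.4% in STAT3+ CM. Its level thus kept a nearly fixed ratio to that of Rpl36a in all 6 libraries. The lowest ratio in STAT3+ CM (10.23%) lay just above the highest in STAT3- CM (10.17%), and this difference was not tested.

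Rps27l and Rpl22l1 did not keep such a ratio to their partners. Rps27l, a paralogue of Rps27 and a known target of p53, stood at 360.1, 377 and 274 CPM in STAT3- CM and at 353, 527 and 378 in STAT3+ CM (log2 change 0.32 ± 0.18 SE, edgeR adjusted p = 0.989). Per length it made up 22.3%, 29.9% and 21.9% of Rps27 in STAT3- CM, compared with 22.1%, 27.4% and 31.7% in STAT3+ CM. Rpl22l1, the paralogue that can replace Rpl22, stood at 262, 228 and 344 CPM in STAT3- CM and at 393, 319 and 221 in STAT3+ CM (0.16 ± 0.22 SE). It made up 25.5%, 23.8% and 33.6% of Rpl22 in STAT3- CM, compared with 32.1%, 23.2% and 23.4% in STAT3+ CM. Both shares overlapped between the media.

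STAT3- CM replicate 3 and STAT3+ CM replicate 1 were the libraries in which Rpl22l1 stood above the core and Rps27l below it. With every gene set against its own mean over the 6 libraries, Rpl22l1 was 0.32 and 0.27 higher there than the core median on the log2 scale and Rps27l 0.37 and 0.25 lower. Of 7 p53 targets among the listed genes, 5 had their lowest levels in the same libraries: Ccng1, Phlda3, Cdkn1a, Mdm2 and Eda2r. Sesn2 and Zmat3 did not, and Zmat3 was second highest in STAT3- CM replicate 3, at 98.4, 92.9 and 106 CPM in STAT3- CM and at 73.4, 98.4 and 118 in STAT3+ CM. This comparison was chosen after the values were seen. Grwd1, Heatr3, Ltv1, Tsr2 and Npm1, listed genes outside these 7 targets, were also lowest in STAT3- CM replicate 3 and STAT3+ CM replicate 1. The same held for further listed genes outside them, among these Riox1, Riox2, Prmt3, Usp10, Rnf10 and Otud3. The share of all genes with that order was not counted, so it is not known to be particular to p53 targets. Ccng1 stood at 600 and 660 CPM in STAT3- CM replicates 1 and 2, 440 in replicate 3, and 454, 614 and 643 in STAT3+ CM. Phlda3 stood at 60.9, 61.9 and 36.5 CPM in STAT3- CM and at 34.0, 71.8 and 58.2 in STAT3+ CM.

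**Figure D5:**
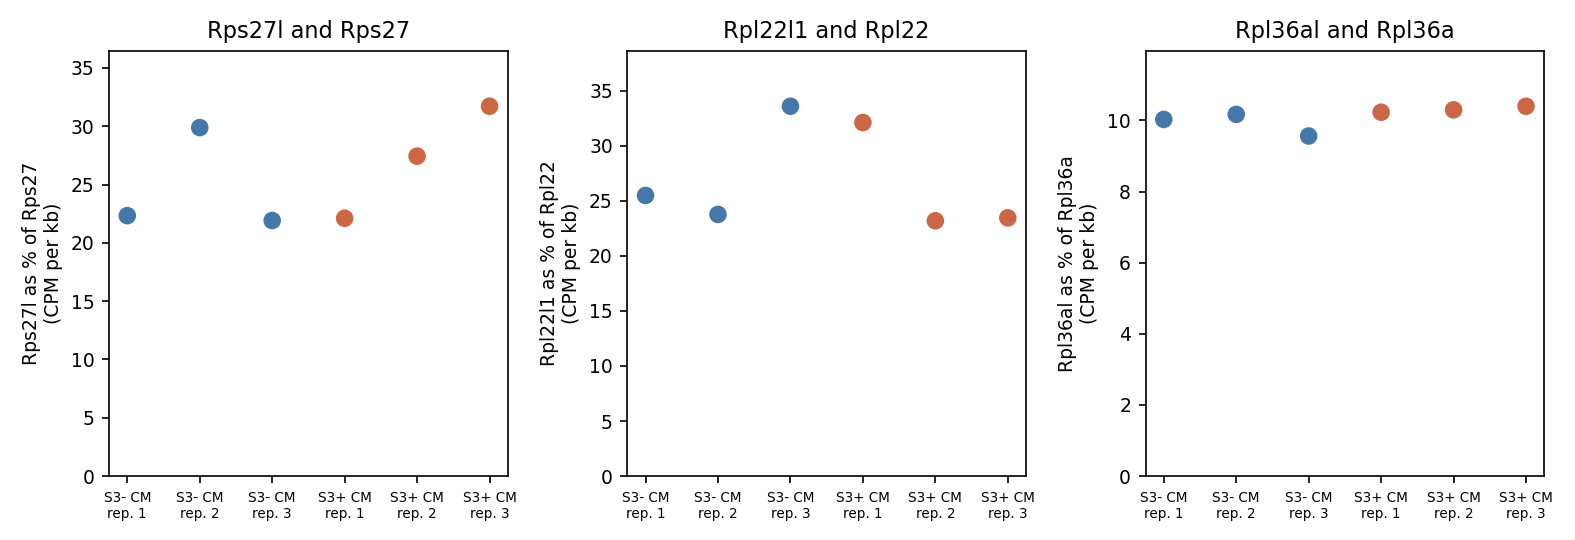
Level of a paralogue as a percent of its partner's level, both in CPM per kilobase of transcript, in each of the 6 libraries (S3 stands for STAT3), for Rps27l and Rps27, Rpl22l1 and Rpl22, and Rpl36al and Rpl36a. In STAT3- CM replicate 3 and STAT3+ CM replicate 1 Rps27l is at 21.9% and 22.1%, close to the 22.3% of STAT3- CM replicate 1, and Rpl22l1 is at 33.6% and 32.1%, while Rpl36al stays between 9.56% and 10.4%.

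The other copies were rare. Rpl37rt, a retrocopy of Rpl37, had the smallest unadjusted p of all 88 genes, 0.0900 by edgeR's test (adjusted p = 0.989). It stood at 5.03, 3.96 and 5.28 CPM in STAT3- CM and at 6.52, 7.28 and 5.16 in STAT3+ CM (log2 change 0.40 ± 0.22 SE), so that STAT3+ CM replicate 3 lay below STAT3- CM replicate 3. Rpl39l, a paralogue of Rpl39 best known from male germ cells, stood at 3.22 ± 0.542 and 3.76 ± 0.801 CPM (0.21 ± 0.24 SE). Rps27rt stood at 1.33 ± 0.393 and 1.70 ± 0.649 CPM (0.33 ± 0.35 SE), Rps3a2 at 0.855 ± 0.274 and 1.04 ± 0.0959 (0.28 ± 0.31 SE) and Rps3a3 at 0.903 ± 0.0140 and 1.003 ± 0.240 (0.13 ± 0.29 SE), each in STAT3- CM and STAT3+ CM.

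The negative values all belonged to copies that the annotation lists as processed pseudogenes. Rps12l1 stood at 2.74, 2.04 and 2.84 CPM in STAT3- CM and at 2.42, 2.14 and 2.13 in STAT3+ CM (log2 change -0.19 ± 0.24 SE). Rps4l stood at 6.58, 6.02 and 4.59 CPM in STAT3- CM and at 4.58, 6.63 and 5.36 in STAT3+ CM (-0.06 ± 0.22 SE). Both overlapped between the media. Rpl6l, with counts of 14 to 32 per library and the largest SD of the 88 genes (0.49), stood at 0.331, 0.554 and 0.520 CPM in STAT3- CM and at 0.705, 0.456 and 0.253 in STAT3+ CM (-0.03 ± 0.42 SE). At 14 counts the counting error alone is 26.7%, so Rpl6l shows little beyond its presence.

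Fau and Rack1, components of the small subunit whose symbols do not begin with Rps, had positive values with the scaling reported, which turned negative with offsets for principal transcript length. Fau, which encodes a ubiquitin-like protein fused to one of the small subunit, stood at 685, 588 and 625 CPM in STAT3- CM and at 795, 835 and 523 in STAT3+ CM (log2 change 0.18 ± 0.18 SE). The scaffold protein Rack1, bound to the head of the small subunit, stood at 2817, 2545 and 2638 CPM in STAT3- CM and at 2942, 3187 and 2308 in STAT3+ CM (0.08 ± 0.16 SE). In both genes STAT3+ CM replicates 1 and 2 were highest and STAT3+ CM replicate 3 lowest.

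Genes that share the TOP tract or act on it gave 0 calls by edgeR, and 0 stood at an unadjusted p under 0.05. Of 21 listed genes with TOP mRNAs, most of them translation factors, 15 had positive values and 6 negative. Their median was 0.09 beside 0.0008 for all genes. Eif3m, a subunit of initiation factor eIF3, stood at 310.2, 319 and 310.0 CPM in STAT3- CM and at 377, 391 and 322 in STAT3+ CM (log2 change 0.21 ± 0.13 SE, edgeR adjusted p = 0.989). Its groups did not overlap, which held for 3.78% of all genes in that direction. Naca and Btf3, which form the complex that shields nascent chains, had 0.20 ± 0.15 SE and 0.18 ± 0.14 SE. Among 14 genes of mTORC1 and TOP control, 4 were positive and 10 negative, or 28.6% positive, with a median of -0.08. Of all genes 50.2% were positive, and of the 5223 genes with long transcripts 30%, with a median of -0.08. The part of transcript length in these 14 values was not tested. Tsc1 and Tsc2, which together restrain mTORC1, had -0.30 ± 0.18 SE and -0.17 ± 0.15 SE, and Mlst8, a subunit of the mTOR complexes, had -0.22 ± 0.15 SE. Tsc1 stood at 34.9, 29.5 and 30.3 CPM in STAT3- CM and at 21.9, 21.8 and 33.1 in STAT3+ CM, so STAT3+ CM replicates 1 and 2 were lowest and STAT3+ CM replicate 3 lay within the other group.

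Genes that guard newly made ribosomal proteins or modify them on the ribosome also gave 0 calls by edgeR, and 0 at an unadjusted p under 0.05. The 7 chaperones all had positive values with the scaling reported, with a median of 0.10, led by Pdcd2 (0.21 ± 0.16 SE), a chaperone for Rps2. Aamp, related to the yeast chaperone of Rpl10, had 0.12 ± 0.13 SE and Pdcd2l 0.10 ± 0.14 SE. Of 8 modifiers 2 were positive and 6 negative, with a median of -0.05, beside 50.2% positive among all genes and 30% among those with long transcripts. Zfp598, the ubiquitin ligase that marks collided ribosomes, had -0.21 ± 0.15 SE. Riox2 and Riox1, hydroxylases of Rpl27a and Rpl8, had -0.18 ± 0.15 SE and 0.10 ± 0.15 SE.

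The list for p53 held 9 genes: Trp53, which encodes p53, Mdm2, Mdm4 and p53 targets. Of these 9, 5 were positive and 4 negative, with a median of 0.01, and 0 passed. Sesn2, a stress-induced inhibitor of mTORC1, was the 1 gene of these lists at an unadjusted p under 0.05 (0.0154 by edgeR's quasi-likelihood test). It stood at 64.8, 48.8 and 43.2 CPM in STAT3- CM and at 29.6, 39.1 and 40.5 in STAT3+ CM (log2 change -0.52 ± 0.18 SE, edgeR adjusted p = 0.989). All STAT3+ CM libraries lay below those of STAT3- CM, as in 4.18% of all genes. Mdm4, an inhibitor of p53, stood at 187 ± 42.8 and 148 ± 30.2 CPM (-0.34 ± 0.19 SE), and Cdkn1a, the cell cycle inhibitor p21 and a p53 target, at 361 ± 32.9 and 433 ± 116 (0.26 ± 0.19 SE). With single libraries left out, Sesn2 ran from -0.64 to -0.34, Mdm4 from -0.52 to -0.15 and Cdkn1a from 0.08 to 0.46.

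The genes most like the core in pattern over the 6 libraries included copies of ribosomal protein genes. By correlation with the core median the first 5 outside the 88 were Gm14165 (0.99), Gm2000 (0.99), Fam174a (0.99), Rps15a-ps6 (0.99) and Rpl36-ps12 (0.99), where the median gene had -0.04. Gm14165, Rps15a-ps6 and Rpl36-ps12 are processed pseudogenes in the annotation. Reads of ribosomal protein genes may have been assigned to their pseudogene copies, and the part this has in the likeness was not tested. Fam174a, with a transcript of 2112 nucleotides, stood at 18.3 ± 0.395 CPM (SD, n = 3) in STAT3- CM and at 22.3, 23.8 and 17.1 in STAT3+ CM. Like most core genes, Fam174a was highest in STAT3+ CM replicate 2 and lowest in STAT3+ CM replicate 3. Together the 101 pseudogene names left out took 0.0143%, 0.0121% and 0.0144% of the counts in STAT3- CM, compared with 0.0162%, 0.0193% and 0.0120% in STAT3+ CM, highest and lowest in the same libraries as the core genes.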

How the data were processed

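The deposited values were whole-number read counts per gene, made by the authors. Per the submitters' processing notes, the tools were TopHat2 2.0.10 with Bowtie 1.0.0, FastQC, Cufflinks 2.2.1 and SAMtools 0.1.19, on the GRCm39 build. The counting program, its gene models and whether strand was used are not given here. The lowest gene total in the table was 40. Counts were filtered with filterByExpr (162 genes left out), scaled by TMM and compared by the quasi-likelihood F test of edgeR 4.0.16 with robust=TRUE (R 4.3.3), with Benjamini-Hochberg adjustment over 14319 genes and a threshold of 0.05. Log2 CPM used a prior count of 2. Alternatives used DESeq2 1.42.0 and limma 3.58.1. The workflow was tested on simulated data. Transcript lengths came from a GRCm38 annotation (shortest principal transcript).

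The members and gene lists were chosen with earlier results of these data known. Members were named by smallest p, level, spread and role (stalk, paralogues, Rps27a, Fau, Rack1), and other listed genes by smallest p; Rpl13a, Rps10 and Rps20 were named after their values were seen. Libraries with equal replicate numbers were not treated as pairs, since their deviations from the group means correlated at -0.261, 0.281 and 0.182. The length and GC corrections and the removal of a pair of libraries were chosen after seeing the data. A gene that the naming rule takes is not reported here.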

Additional observations from a re-analysis of the deposited data

How the results depend on the processing

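Over 22 alternatives the number of ribosomal protein genes called stayed at 0. The median log2 fold changes of all 88 genes and each subunit, and the difference in summed share, moved less than the SD between libraries. For all 88 genes that SD was 0.192, larger than the median of 0.159, so even a move to 0 stayed below it. With offsets for principal transcript length that median was -0.0037. Left-out libraries gave 0.053 to 0.299 (all 88 genes), 0.057 to 0.290 (large subunit), 0.044 to 0.296 (small subunit) and 0.046 to 1.581 points (share). The number of all genes called, STAT3+ CM against STAT3- CM, was 0 by edgeR, 48 by DESeq2, 16 by limma-voom with quality weights, 0 to 18 with single libraries left out (1 without STAT3- CM replicate 1 and 18 without STAT3- CM replicate 3), and 10 when STAT3- CM replicate 3 was left out together with STAT3+ CM replicate 1. The fit with the replicate number as a block gave 0 calls and a median of 0.139 for the ribosomal protein genes. Of 988 values of single genes under an alternative, 54 changed sign, all of values that were not called, and the cause was not tested. With library totals Rplp0 had -0.020 and Rps4x -0.013, and with DESeq2 Rpl6l 0.006. Without that pair Rplp0 had -0.008, Rps3a3 -0.045 and Rps4x -0.026. With offsets for principal length the values were Fau -0.016, Rack1 -0.011, Rpl10 -0.055, Rpl22l1 -0.024, Rpl32 -0.047, Rpl4 -0.009, Rpl41 -0.005, Rpl7 -0.015, Rplp0 -0.066, Rplp1 -0.089, Rplp2 -0.054, Rps12 -0.056, Rps4x -0.088 and Rps6 -0.009. With median length they were Fau -0.015, Rack1 -0.009, Rpl10 -0.056, Rpl22l1 -0.030, Rpl32 -0.023, Rpl4 -0.007, Rpl7 -0.016, Rplp0 -0.065, Rplp1 -0.093, Rplp2 -0.053, Rps12 -0.061, Rps3a3 -0.002, Rps4x -0.090 and Rps6 -0.012. With shortest length they were Rplp0 -0.030, Rplp1 -0.009 and Rps4x -0.037. With single libraries left out the ranges were Rps4l -0.200 to 0.059, Rpl6l -0.454 to 0.317, Riox1 -0.024 to 0.201, Rplp0 -0.074 to 0.103, Rpl22l1 -0.044 to 0.356, Rps3a3 -0.034 to 0.331, Rps4x -0.024 to 0.139, Rps6 -0.004 to 0.291, Pdcd2l -0.016 to 0.176, Rack1 -0.022 to 0.200, Rplp1 -0.076 to 0.215 and Rps12 -0.003 to 0.229. Depth did not limit the core genes, but the rare copies had counting errors of 6.93% to 26.7% at their lowest counts.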
